A study of Mus musculus with 8 samples.

Results

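Genes of the vascular endothelium were examined in ventricles of embryonic mouse hearts at E14.5. The set holds 34 genes in 4 classes: 23 general endothelial genes, 5 genes of arterial endothelium, 5 of capillary endothelium and 1 of veins. They were chosen by name as textbook markers, with earlier results of these data known. Of the 34, 32 have a row among the 13869 genes of the table. Car4 and Mfsd2a, both capillary genes, do not and were not analysed here. The mutant group is labelled Mib1flox; TnT-Cre, in which floxed Mib1 is deleted by a Cre recombinase driven by the cardiac troponin T promoter, and the control group is labelled WT and consists of siblings. The labels give neither the number of floxed copies nor any allele that the WT siblings carry. Per the series description, 16 hearts of each genotype were pooled into 4 libraries, so each of the 8 libraries of polyadenylated RNA is a pool. Whether the pools of a genotype share litters is not stated, and p-values therefore measure the spread between these pools.

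Endothelial cells line the blood vessels. In the embryonic ventricle they form the endocardium, which covers the trabeculae, and the growing coronary vessels of the wall. Transcription factors of the ETS and SOX families drive genes that most endothelial cells share, among them cadherin 5 of the cell junctions, and arteries, capillaries and veins add genes of their own. The troponin T promoter is active in cardiomyocytes, so the endothelial cells in these ventricles are not the cells in which Cre is meant to act. In tissue RNA, fewer endothelial cells and less RNA per endothelial cell cannot be told apart.

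The libraries held 6307634 to 11506082 counts, and mutant library 1 was the deepest. Levels are given in CPM, counts per 1000000 after the normalization of library size. The limit that a count of 0 allows, 3 counts, was 0.265 to 0.472 CPM depending on the library (counting error only), and every member with a row lay above it in all 8 libraries. Mib1, the targeted gene, stood at 106.4, 102.9, 95.3 and 96.3 CPM in the mutant libraries and at 150.3, 165.5, 160.5 and 166.8 CPM in wild type (exact two-sided permutation p = 0.0286, the smallest that 4 against 4 libraries can give).

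Most of the endothelial genes were lower in the mutant ventricles by small amounts. Of the 32 members, all of which passed the filter on low levels, 27 had a difference below 0, against 49.7% of the 13740 genes tested. The median log2 difference (mutant minus wild type) was −0.17 over the members, that is 89% of the wild-type level, and 0 over all genes tested. By limma, 4 members fell at a Benjamini-Hochberg adjusted p under 0.05 over all genes, where 1.25% of all genes tested did: Mmrn2, Ramp2, Egfl7 and Tspan18. Egfl7 and Tspan18 were not called with scaling to the recovered totals (limma adjusted p = 0.0548 and 0.0534) or with eBayes without a trend (0.156 and 0.134). None rose (0.99% of all genes tested did), nor did any with voom precision weights at the same adjusted threshold. At an unadjusted p under 0.05 the count of rises was 0 as well (6.94% of all genes). At an unadjusted p under 0.05, 12 members were lower (7.85% of all genes). In 9 members every mutant library lay below every wild-type library (4.63% of all genes), and in 0 every one lay above (4.26%). The levels summed over the 32 members ran from 2230.7 to 2243.5 CPM in the mutant libraries and from 2400.8 to 2498.2 CPM in wild type.

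**Figure D1:**
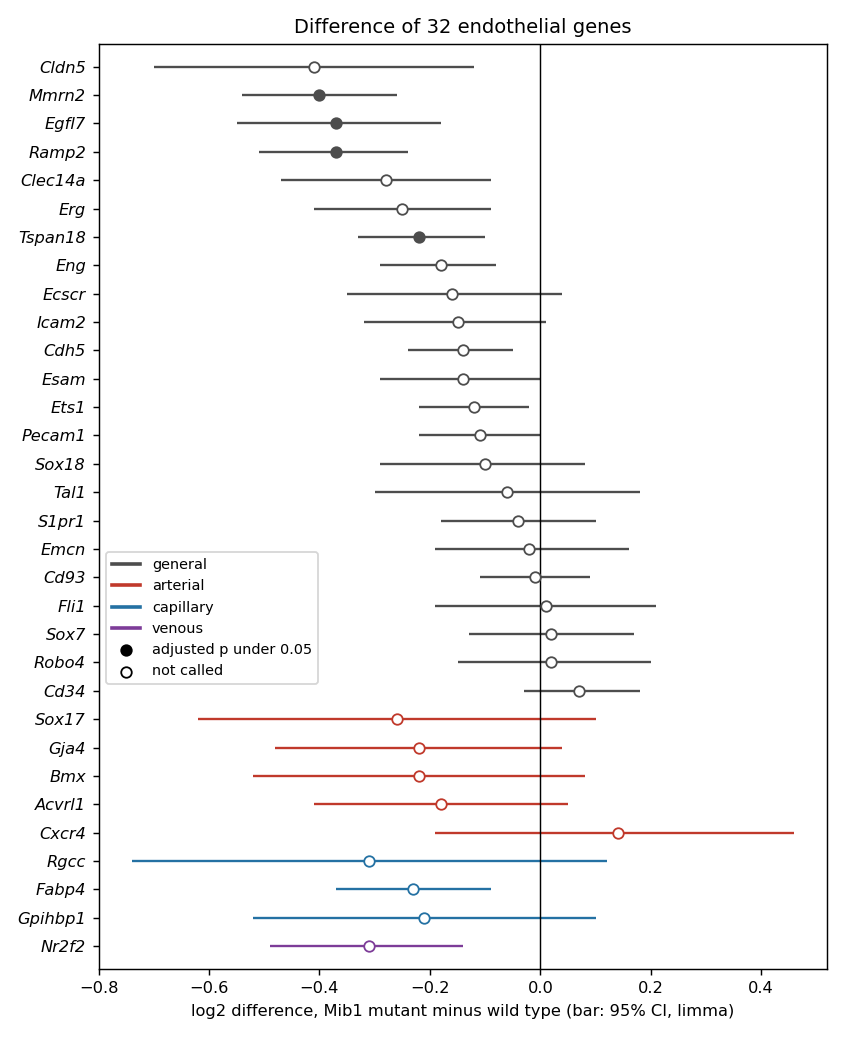
Log2 difference between Mib1 mutant and wild-type ventricles (x axis) for the 32 endothelial genes with a row in the table (y axis), grouped by class; bars are 95% confidence intervals from limma over 4 and 4 libraries, and filled points mark an adjusted p under 0.05. Of the 32 points 27 lie left of 0, and the 4 filled points are all general endothelial genes.

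Both secreted proteins of the general class fell. Mmrn2 (ENSMUSG00000041445) encodes multimerin 2, a glycoprotein that endothelial cells deposit in the matrix around them and that binds the surface proteins encoded by Cd93 and Clec14a. Its level was 62.9, 66.2, 75.6 and 69.9 CPM in the mutant libraries and 87.5, 93.4, 94.2 and 86.2 CPM in wild type. The groups did not overlap. Mmrn2 fell from 90.3 ± 4.05 to 68.6 ± 5.45 CPM (SD, n = 4), 1.32-fold, with a log2 difference of −0.4 ± 0.06 (SE; limma adjusted p = 0.00404). The call held in all 8 fits that left out 1 library, with adjusted p values of 0.00126 to 0.0245. Of its binding partners, Clec14a stood at −0.28 (adjusted p = 0.145) and Cd93 at −0.01, with a 95% interval of −0.11 to 0.09.

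Egfl7 (ENSMUSG00000026921) encodes a secreted EGF-domain protein of the vessel matrix that is made mainly by endothelial cells. Its level was 47, 47.3, 57.6 and 51.2 CPM in mutant ventricles and 73.4, 68.8, 63.2 and 57.1 CPM in wild type. The groups touched, mutant library 3 lying just above wild-type library 4. Egfl7 fell 1.29-fold from 65.6 ± 7.04 to 50.8 ± 4.94 CPM, with a log2 difference of −0.37 ± 0.09 (SE; limma adjusted p = 0.0405). When each library was omitted in turn, this call held without mutant library 3 or without wild-type library 4 and was lost in the other 6 fits (adjusted p 0.0126 to 0.145 over the 8 fits). In GENCODE M21, 7.37% of its exon bases are shared with the readthrough model Gm20532 on the same strand, and 1.79% with Agpat2 on the other strand, which stood at 0.12 (adjusted p = 0.733).

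Egfl7 is the only one of the 4 genes that fell for which a promoter sequence was at hand, and it has 3 start sites in RefSeq, so the 250 bases before each start are shown. They are followed by those of Robo4, a roundabout receptor of endothelial cells that was not called (difference 0.02), for contrast. All are 5′ to 3′ on the plus strand of GRCm38.p6. Capitals mark AGGAAG, a form of the core that ETS factors such as Erg and Fli1 bind, and its reverse complement CTTCCT.
Egfl7 first start, chr2:26580833-26581082: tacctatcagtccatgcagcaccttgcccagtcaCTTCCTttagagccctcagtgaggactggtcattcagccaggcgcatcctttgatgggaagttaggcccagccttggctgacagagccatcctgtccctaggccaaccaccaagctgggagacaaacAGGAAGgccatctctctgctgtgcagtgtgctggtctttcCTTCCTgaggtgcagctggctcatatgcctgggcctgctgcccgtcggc
Egfl7 second start, chr2:26583615-26583864: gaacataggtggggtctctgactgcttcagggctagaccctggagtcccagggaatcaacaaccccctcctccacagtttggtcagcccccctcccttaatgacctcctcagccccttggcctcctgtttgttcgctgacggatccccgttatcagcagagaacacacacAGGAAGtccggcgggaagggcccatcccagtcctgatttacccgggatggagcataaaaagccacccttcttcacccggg
Egfl7 last start, chr2:26586386-26586635: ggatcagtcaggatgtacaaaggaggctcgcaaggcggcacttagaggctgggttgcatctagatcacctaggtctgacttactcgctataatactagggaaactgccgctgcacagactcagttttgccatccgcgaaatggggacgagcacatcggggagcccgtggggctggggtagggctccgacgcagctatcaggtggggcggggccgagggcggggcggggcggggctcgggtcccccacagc
Robo4, chr9:37401722-37401971: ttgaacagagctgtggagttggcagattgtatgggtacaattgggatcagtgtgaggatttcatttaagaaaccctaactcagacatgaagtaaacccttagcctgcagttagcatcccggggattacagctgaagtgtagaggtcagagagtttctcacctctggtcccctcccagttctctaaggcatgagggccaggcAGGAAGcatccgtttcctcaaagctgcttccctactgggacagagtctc
The first Egfl7 window held 1 match on the plus strand and 2 on the other, the second 1 and 0, and the last none. Robo4, which was not called, held 1 on the plus strand. Over both strands the motif occurred in 9 of the 19 windows of the 14 tested members that have one, and in 29.5% of all 32851 windows of the same length. A match is a run of letters and says nothing of binding, and the table does not separate the reads of the 3 Egfl7 starts.

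Among the receptors, Ramp2 (ENSMUSG00000001240) fell. It encodes the receptor activity-modifying protein that joins the calcitonin receptor-like receptor to form a receptor for adrenomedullin, a peptide needed for vessel integrity. Its level was 46.8, 48.5, 52.1 and 52.8 CPM in mutant ventricles and 63.4, 65.5, 68.2 and 61.7 CPM in wild type. The groups did not overlap. Ramp2 fell 1.29-fold from 64.7 ± 2.78 to 50 ± 2.87 CPM (SD, n = 4), with a log2 difference of −0.37 ± 0.06 (SE; limma adjusted p = 0.00527), and kept its call whichever of the 8 libraries was omitted (adjusted p 0.00584 to 0.0306). In GENCODE M21, 33.41% of the exon bases of Ramp2 are shared with its same-strand neighbour Vps25, so counting could split reads between them. Vps25, which encodes a subunit of the endosomal sorting machinery, stood at 39 ± 4.57 CPM in the mutants and 41.2 ± 4.85 CPM in wild type, a difference of −0.08 (limma adjusted p = 0.772).

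The other receptors of the general class were not called. Eng encodes endoglin, a co-receptor for BMP ligands, and stood at 195.2, 202.9, 203.2 and 211.7 CPM in the mutants against 234.9, 241.6, 227.1 and 218.2 CPM in wild type. Every mutant library was below every wild-type one, and the difference was −0.18 ± 0.05 (SE; limma adjusted p = 0.0792). S1pr1 encodes a receptor for the lipid sphingosine phosphate that steadies endothelial junctions. It ranged from 120.6 to 148 CPM in the mutants and from 135.7 to 148.3 CPM in wild type, with overlap and a 95% interval of the difference of −0.18 to 0.1.

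Of 12 junction and surface proteins 1 fell (1.25% of all genes tested did), 10 had a difference below 0 (49.7% of all genes) and the median was −0.14. Tspan18 (ENSMUSG00000027217), a tetraspanin gene of endothelial cells, gave 98.1, 101.3, 98.2 and 93.3 CPM in the mutants and 106.9, 117, 113.4 and 117.3 CPM in wild type. The groups did not overlap, and the level fell from 113.6 ± 4.81 to 97.7 ± 3.29 CPM (SD, n = 4), to 86% of wild type. Its log2 difference of −0.22 ± 0.05 (SE) had a limma adjusted p of 0.0478, close to the threshold, and of the 8 fits that each omitted a library 1 kept the call, the one without mutant library 3 (adjusted p 0.0497 to 0.161).

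The junction and surface genes most used as endothelial markers were not called. Cdh5, the vascular endothelial cadherin gene, stood at 264.9, 262.6, 265.9 and 269.2 CPM in the mutants and at 303.7, 284.1, 289.2 and 297 CPM in wild type, without overlap; the difference was −0.14 ± 0.04 (SE; limma adjusted p = 0.118). Pecam1, which encodes a platelet and endothelial adhesion molecule, stood at 165.7, 184.2, 170.4 and 184.7 CPM against 194.7, 191.7, 180.8 and 192.2 CPM. Its groups overlapped, and the difference was −0.11 ± 0.05 (SE; limma adjusted p = 0.355). Emcn, which encodes the surface sialoprotein endomucin of veins, capillaries and endocardium, stood at 77.2, 63.2, 58.4 and 58.7 CPM in the mutants and at 64.7, 65.9, 62.7 and 65.2 CPM in wild type. Mutant library 1 was above, and mutant libraries 3 and 4 were below, all 4 wild-type libraries, and the 95% interval of the difference ran from −0.19 to 0.16.

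Cldn5, the gene of the endothelial tight junction protein claudin 5, had the lowest difference of all 32 members and was not called. It stood at 9.26, 13.6, 15.1 and 12.6 CPM in the mutants and at 18, 15.8, 16.7 and 15.9 CPM in wild type. The groups did not overlap, mutant library 1 was the lowest, and the difference was −0.41 ± 0.13 (SE; limma adjusted p = 0.155). Esam, Icam2 and Ecscr, adhesion and signalling proteins of the endothelial surface, had differences of −0.14, −0.15 and −0.16, and none was called. At the other end Cd34, a surface sialomucin gene of endothelial and blood progenitor cells, stood at 170, 152, 157.6 and 160.2 CPM in the mutants and at 154.6, 150.2, 152.3 and 150.1 CPM in wild type. The groups overlapped, and the difference was 0.07, with a 95% interval of −0.03 to 0.18. Cldn5, Cd34 and the other genes described that the naming rule did not pick were chosen after their values were seen.

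**Figure D2:**
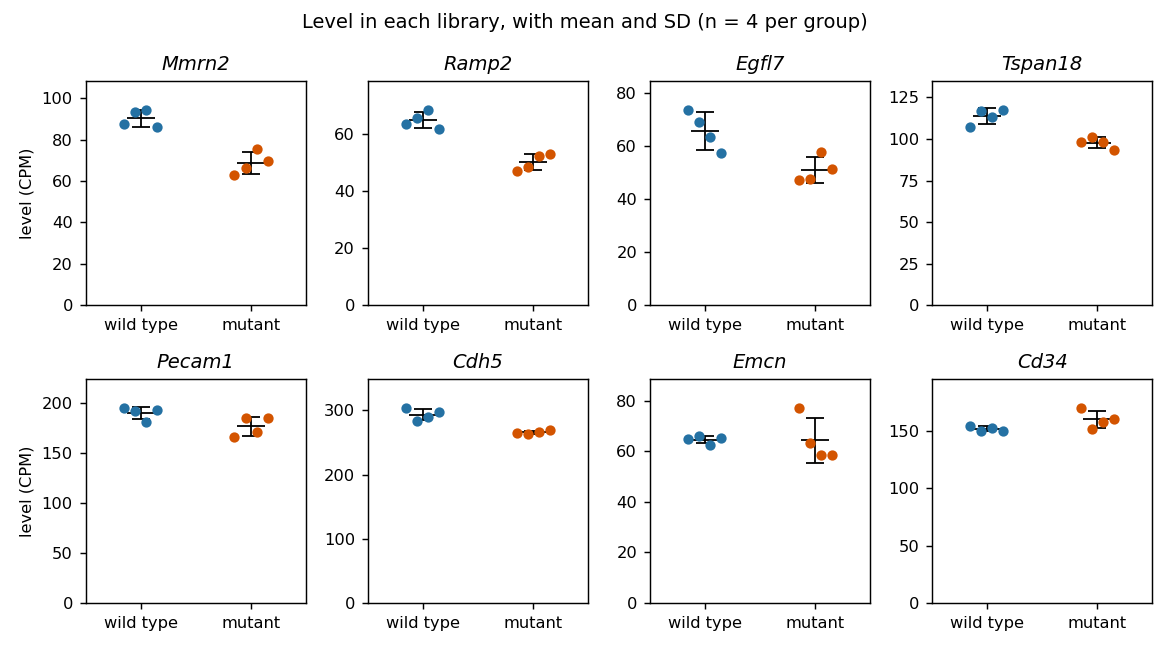
Level in CPM (y axis, from 0) of 8 endothelial genes in each wild-type (blue) and Mib1 mutant (orange) library, with black bars for the mean and SD of 4 libraries. The groups are apart in Mmrn2, Ramp2, Tspan18 and Cdh5, and overlap in Egfl7, Pecam1, Emcn and Cd34; in Emcn and Cd34 mutant library 1, the leftmost orange point, is the highest of all 8.

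None of the 6 general transcription factors was called (1.25% of all genes tested were called lower), and 4 had a difference below 0 (49.7%). At an unadjusted p under 0.05, 2 were lower (7.85% of all genes). Erg, an ETS factor that maintains endothelial identity, had no overlap between the groups, at 25.5 to 27.9 CPM in the mutants and 29.3 to 34 CPM in wild type, and a difference of −0.25 ± 0.07 (SE; limma adjusted p = 0.103). Ets1, another ETS factor, ranged from 126 to 132.1 CPM in the mutants and from 133.4 to 142.3 CPM in wild type, with a difference of −0.12 (adjusted p = 0.249). The related Fli1 stood at 0.01, with a 95% interval of −0.19 to 0.21. Of the SOX factors of vessel development, Sox18 stood at −0.1 (interval −0.29 to 0.08) and Sox7 at 0.02 (interval −0.13 to 0.17). Tal1, a factor shared by blood and endothelial precursors, stood at −0.06 (interval −0.3 to 0.18). The groups of these last 4 overlapped.

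None of the 5 arterial genes was called (1.25% of all genes tested were called lower and 0.99% higher). None had an unadjusted p under 0.05 (7.85% of all genes were lower and 6.94% higher). Of the 5, 4 had a difference below 0 (49.7% of all genes), and the class median was −0.22. Gja4, a gap junction gene of arterial endothelium, stood at 15.1, 16.9, 21.2 and 18.7 CPM in the mutants and at 22.6, 22.6, 21.3 and 17.1 CPM in wild type. Acvrl1, the receptor gene for circulating BMP ligands that works with endoglin, stood at 14.4, 17.4, 19.5 and 16.7 CPM against 17.4, 20.2, 21.3 and 18.1 CPM. In both, the wild-type libraries reached higher and the groups overlapped, and the differences were −0.22 ± 0.12 and −0.18 ± 0.11 (SE). Bmx, a tyrosine kinase gene of arterial endothelium and endocardium, stood at 13.3, 12.5, 8.53 and 10.7 CPM against 13.1, 12.5, 11.7 and 14.55 CPM (difference −0.22 ± 0.14, SE). Sox17, a SOX factor of arteries, stood at 5.82, 6.62, 6.58 and 5.36 CPM against 8.94, 5.33, 8.19 and 7.21 CPM (difference −0.26 ± 0.17, SE). In Bmx mutant library 3, and in Sox17 wild-type library 2, was the lowest of all 8. Cxcr4, a chemokine receptor gene of growing coronary arteries and also of blood cells, went the other way at 0.14, with a 95% interval of −0.19 to 0.46. Counting error alone gave the difference of Sox17 an SE of 0.14, the size of the median difference of the general genes. For the other arterial genes this SE ran from 0.082 (Gja4) to 0.103 (Bmx). The part of counting error in the lack of arterial calls was not tested. In GENCODE M21, 16.85% of the Sox17 exon bases overlap Gm37587 on the other strand.

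All 3 capillary genes with a row had a difference below 0 (49.7% of all genes tested did). None was called (1.25% of all genes were called lower), and the median was −0.23. Fabp4, a fatty acid-binding protein gene of coronary capillaries that macrophages also use, stood at 90.4, 86.5, 84.4 and 100.5 CPM in the mutants and at 112.6, 106.3, 97.5 and 108.3 CPM in wild type. The groups overlapped by 1 library each, mutant library 4 and wild-type library 3, and the difference was −0.23 ± 0.07 (SE; limma adjusted p = 0.0923). Without mutant library 4 it was −0.28, at an adjusted p of 0.0393. Gpihbp1, whose product carries lipoprotein lipase to the capillary lumen, stood at 5.38, 7, 6.73 and 7.1 CPM against 7.64, 8.88, 6.61 and 7.21 CPM (difference −0.21 ± 0.14, SE). Rgcc, a cell cycle regulator gene of capillaries, stood at 2.56, 2.16, 2.69 and 2.37 CPM against 3.46, 2.55, 3.15 and 3.06 CPM. Its groups touched at the lowest wild-type library, and the 95% interval of the difference ran from −0.74 to 0.12, the counts per library being as low as 17.

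Nr2f2 encodes the COUP factor of venous identity and is also expressed in atrial cardiomyocytes. It stood at 21.2, 24, 20.8 and 21.4 CPM in the mutants and at 25.9, 27.8, 25.8 and 29.2 CPM in wild type. The groups did not overlap, and the difference was −0.31 ± 0.08 (SE; limma adjusted p = 0.0617). In the same libraries the summed level of 6 atrial markers was 686.5 to 890.5 CPM in the mutants and 1330 to 1488.1 CPM in wild type. Of these markers 2 fell and 1 rose (1.25% and 0.99% of all genes tested), Nppa, which trabeculae also express, being one of the falls. The part of the atrial markers in the difference of Nr2f2 was not tested.

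Side by side, the class medians were −0.14 for 23 general, −0.22 for 5 arterial and −0.23 for 3 capillary genes, with −0.31 for the venous gene. The ranges overlapped: the general genes ran from −0.41 to 0.07, the arterial from −0.26 to 0.14 and the capillary from −0.31 to −0.21. The 4 calls lay in the general class of 23 genes, by far the largest class (1.25% of all genes tested were called lower). The difference between classes was not tested.

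**Figure D3:**
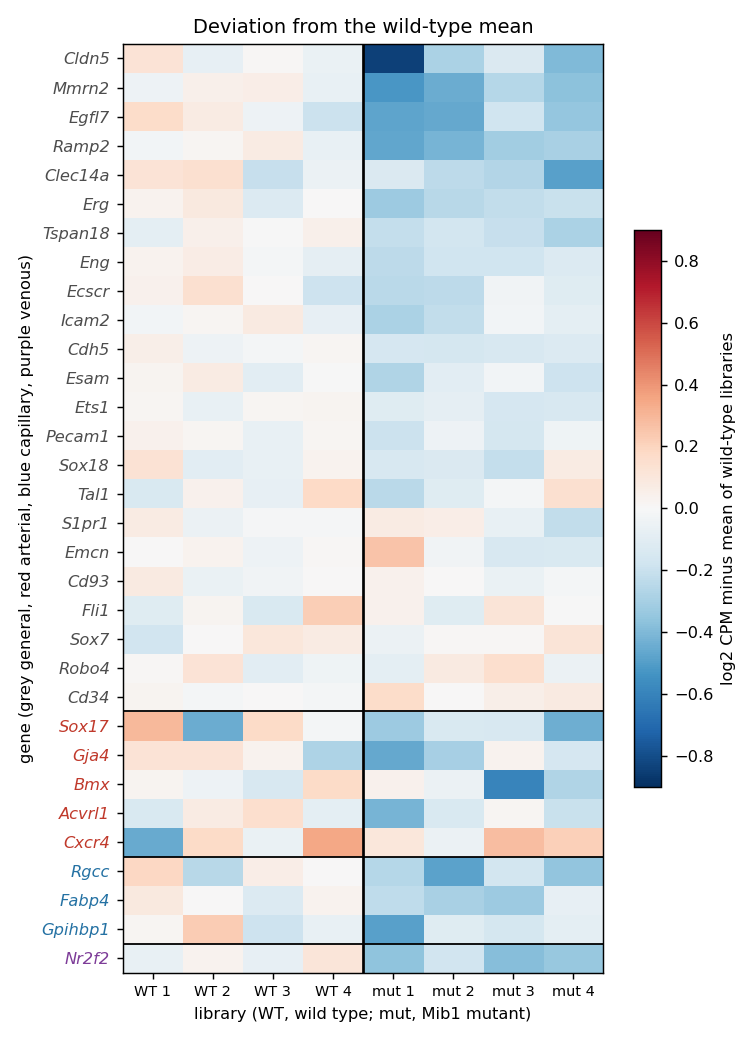
Log2 CPM of each endothelial gene (rows, grouped by class) in each library (columns) minus the mean of the 4 wild-type libraries; blue is lower and red is higher. The 4 mutant columns are mostly blue from Cldn5 to Cdh5 and mixed from S1pr1 to Sox7, while arterial genes vary within both groups; the darkest cell is Cldn5 in mutant library 1, at −0.84.

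Levels between genes were compared per kilobase of the longest coding transcript. In wild type Fabp4 was the highest at 118.5 CPM per kilobase, followed by Cdh5 (73.5), Eng (67.3) and Cd34 (59.4). Pecam1 and Ramp2, at 55.2 and 54.9 CPM per kilobase, did not differ by more than their spread. The arterial genes stood between 12.4 (Gja4) and 2.29 CPM per kilobase (Sox17, the lowest of the 32), and Gpihbp1 and Rgcc at 4.59 and 3.33. Ramp2 stood at 42.5 CPM per kilobase in the mutants, and Egfl7 at 36.5 against 47.2 in wild type.

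**Figure D4:**
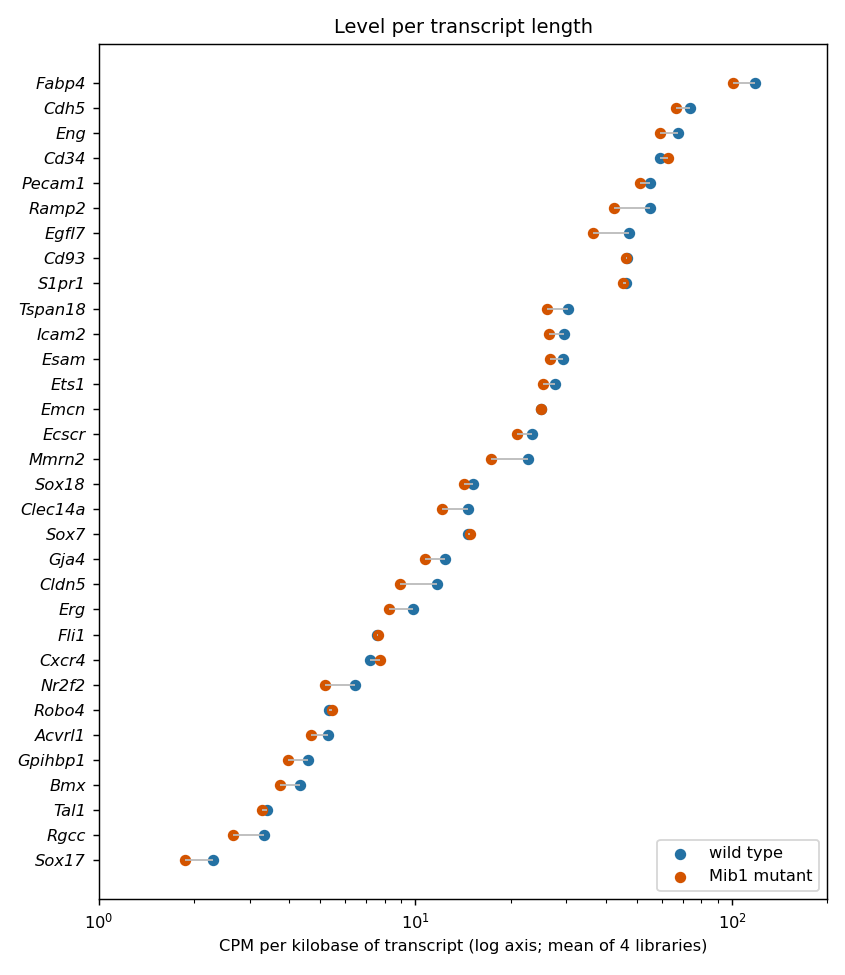
Mean level per kilobase of transcript (x axis, log scale) of the 32 endothelial genes (y axis, ordered by wild type) in wild-type (blue) and Mib1 mutant (orange) ventricles, 4 libraries each. The values run from 118.5 (Fabp4) to 2.29 CPM per kilobase (Sox17) in wild type, and the widest gaps between the colours belong to genes such as Mmrn2, Ramp2, Egfl7 and Cldn5.

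To set each gene against the endothelial compartment, every library was also centred on the mean log2 CPM of Pecam1, Cdh5, Kdr, Tie1 and Erg. On this scale the median of all genes tested moved to 0.18, 0.953% of all genes were called lower and 22.3% higher. The members' median was 0.01. Mmrn2 was still lower, by −0.22 (95% interval −0.37 to −0.07; limma adjusted p = 0.0363). Ramp2 and Egfl7 stood at −0.19 each, with adjusted p values of 0.0539 and 0.0983, and Tspan18 at −0.04. Cd34 was higher on this scale, by 0.25 (95% interval 0.11 to 0.39; limma adjusted p = 0.0217), which is 0.07 more than the median of all genes moved, and Cd93 stood at 0.17 (adjusted p = 0.0576). With 1 member of 32 called higher, the share of the members was below that of all genes. Pecam1, Cdh5 and Erg are among the genes that set this scale.

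Of 42 further endothelial genes, 40 had a row and were tested, and 7 fell and 1 rose (1.25% and 0.99% of all genes tested). A difference below 0 was found in 33 (49.7% of all genes), and the median was −0.21. Tek, Aplnr, Hey1, Cd36, Vwf, Plvap and Arap3 fell and Unc5b rose. Only Aplnr, Vwf and Plvap of these 8 kept the call whichever library was omitted; of the 8 such fits, Arap3 was called in 5, Cd36 and Unc5b in 3 each, Hey1 in 2 and Tek in 1. Vwf stood at −0.8, Plvap at −0.65 and Aplnr at −0.65 (limma adjusted p = 0.000326, 0.000198 and 0.000128). On the scale centred on 5 endothelial genes they were still called lower, at −0.62, −0.48 and −0.47. Tek stood at −0.25, Cd36 at −0.39, Hey1 at −0.4 and Unc5b at 0.36. Arap3, a GTPase-activating protein gene of endothelial cells needed for vessel sprouting, fell from 89.1 to 70.6 CPM (difference −0.34, limma adjusted p = 0.0174). Nos3, the gene of endothelial nitric oxide synthase, stood at −0.25, and Ptprb, a phosphatase gene of endothelial junctions, at −0.03. Dll4 and Efnb2 stood at −0.05 and −0.06, Notch1 at −0.17, Notch4 at −0.26 and Jag1 at −0.36. None of these genes was called. In 16 of the 40 tested, Notch4 and Jag1 among them, every mutant library lay below every wild-type library (4.63% of all genes). In 3 every one lay above (4.26%).

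Markers of the endocardium, itself endothelial, and of other cells were read in the same libraries. Of all genes tested 1.25% were called lower and 0.99% higher, and 49.7% had a difference below 0. Over 8 endocardial markers the summed level was 430.7 to 460.1 CPM in the mutants and 548.7 to 573.1 CPM in wild type. Of the 8, 6 had a difference below 0 and 4 fell. Plvap, Vwf and Tmem100 are in this list and in the one above. Over 12 macrophage markers it was 65.1 to 81 CPM against 99.1 to 124.7 CPM, with 3 of 12 called lower and all 12 below 0. Over 9 erythroid markers it was 1966.3 to 3228 CPM against 3002.4 to 4090.3 CPM, with 2 of 9 called lower. Over 8 pericyte and smooth muscle markers it was 1541.7 to 1628.6 CPM against 1288.8 to 1461.1 CPM, but 4 of the 8 had a difference below 0 and 4 above, with a median of 0.04 and a range of −0.46 to 0.51; Abcc9 fell and Acta2 rose. Of the listed markers, the erythroid gene Epb42 had no row; no other gene of these 4 lists had 0 counts in all libraries. The 4 lymphatic markers, Flt4, Lyve1 and Prox1 of the list above among them, summed to 129.1 to 143.4 CPM against 129 to 139.5 CPM. Of them 2 were below 0 and 2 above, from −0.27 (Flt4) to 0.34 (Lyve1), and none was called. Of 5 megakaryocyte markers 2 had a row and summed to at most 5.76 CPM in any library. No fibroblast, epicardial, proliferation or cardiomyocyte marker was called, and the medians were −0.05, 0.02, 0.04 and −0.11. In 2 of 7 cardiomyocyte markers, Tnnt2 and Myl2, every mutant library lay below every wild-type library (4.63% of all genes). The part of these cells in the differences of the endothelial genes was not tested.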

How the data were processed

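Per the labels, polyadenylated RNA was sequenced from 1 end. Per the submitters' processing notes, cutadapt 1.2.1, RSEM 1.16, Bowtie2 0.12.7 (version as named), limma and edgeR were used with build mm9; the counting settings are not given in the sources used here. The deposited values are scores: log2 CPM with a prior of 0.5 counts, multiplied by a constant per library so that each column sums to 1000000. They were divided by that constant, taken from the lowest distinct values of the column. Whole counts then came back for 100% of values (tolerance 0.001 counts). Symbols, lengths and exon overlaps came from GENCODE M21 (GRCm38), with 13428 of 13869 IDs matched, and promoters from RefSeq (GRCm38.p6), with 16 of 34 members matched.

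The 13740 genes whose log2 CPM averaged 0 or more were fitted with limma 3.58.1 in R 4.3.3, group as the only term and eBayes with a trend, after tests on simulated data. Intervals are 95%, per gene. Per-library values were given for called members, the 4 of smallest p per class, Pecam1, Cdh5 and Emcn. Members, lists and rules were chosen with earlier results of these data known. The 24 alternatives covered the filter, pseudocount, scaling, variance model, replicate number, threshold and each library left out.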

Additional observations from a re-analysis of the deposited data

Results flagged for a closer look

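Among 64 groups of 4 libraries (32 genes in 2 genotypes), 1 held a library far from its group by the ratio of Dixon, where chance marks about 1 in 20. Ets1 in wild-type library 2 stood at 133.4 CPM, from 1202 counts, against 141.2 to 142.3 CPM in the other 3 wild-type libraries.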

How the results depend on the processing

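Of 24 alternatives, 16 changed a setting and 8 left out 1 library. The count of members called lower was 4 as reported. It was 2, Mmrn2 and Ramp2, with scaling to the recovered totals, with eBayes without a trend and at a threshold of 0.01, and 7 at a threshold of 0.1, which adds Eng, Fabp4 and Nr2f2. With a library left out it ran from 2 to 4. Centring on 5 endothelial genes gave 1 lower and 1 higher, with a median of 0.01 over the members. The median of −0.17 became −0.13 with log2(CPM + 5) and ran from −0.19 to −0.13 with a library left out.

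With the replicate number as a block (replicate block) the count of falls was 2, Egfl7 and Tspan18 having adjusted p values of 0.0758 and 0.105. Libraries sharing a number correlated at −0.04 to 0.1 after removal of group means, and 0 mutant and 1 wild-type libraries correlated best with the library of the same number, so a shared number was not taken as a pair.

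Of 703 values of members under alternatives, 28 changed sign, 22 lost and 2 gained a call. On the endothelial centring Pecam1 stood at 0.07, Cdh5 at 0.04, Emcn at 0.16, Esam at 0.03, Sox18 at 0.08, Ets1 at 0.06, Ecscr at 0.02, Tal1 at 0.12, Icam2 at 0.02, Cd93 at 0.17 and S1pr1 at 0.14, which the added shift of that scale sets. Fli1 was at −0.00 with voom weights, and the other changes of sign came with a library left out: Fli1 ran from −0.04 to 0.08, Tal1 from −0.12 to 0.01, Emcn from −0.11 to 0.03, Robo4 from −0.02 to 0.06, Cd93 from −0.03 to 0.02, Sox7 from −0.04 to 0.05, S1pr1 from −0.08 to 0.02 and Cxcr4 from −0.02 (without wild-type library 1) to 0.25. None of these genes was called in either setting. In the arterial genes counting error alone gave an SE from 0.082 (Gja4) to 0.14 (Sox17). Its part in the lack of calls was not tested.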

Other observations

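The 32 members did not vary alike within the mutant group. Mutant library 1 was the lowest mutant library in 16 of them, libraries 2, 3 and 4 in 5, 7 and 4, and it was the highest in 6, Emcn and Cd34 among them. The median deviation of the members from the wild-type mean was −0.23 in mutant library 1 and −0.14 in each of the other 3, on the log2 scale, and 25 to 27 of the 32 members lay below that mean in each mutant library. In the wild-type libraries the medians ran from −0.02 to 0.03.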
